A study of Mus musculus with 9 samples.

Results

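The p38 and JNK mitogen-activated protein kinases, with the kinases, adaptors and scaffolds that feed into them and the kinases and transcription factors that they act on, were described as 41 genes of the 21989 gene symbols in the deposited table. The members were taken by symbol and fell into 9 layers: p38 kinases, JNK kinases, MAP2 kinases, MAP3 kinases, MAP4 kinases, TAB and TRAF adaptors, JIP scaffolds, downstream kinases and transcription factors. RNA was sequenced from the hearts of 9 male mice of the C57BL/6J strain, 18 to 20 weeks old, in 3 groups of 3. The first group, LD, had the TAC operation and received Lingguizhugan decoction, a Chinese herbal preparation. The second, TAC, had the same operation and received distilled water. The third, sham, had a sham operation and received distilled water. TAC is commonly read as transverse aortic constriction, a narrowing of the aorta that overloads the left ventricle. According to its title, the study concerned MAPK and AKT signalling in heart failure under this decoction. The labels describe the libraries as biological repeats and name no litter or batch, so the p-values measure the spread between these 3 mice of each group.

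Stress kinase signalling runs as a relay. MAP4 kinases and TRAF adaptors pass signals from receptors and damaged cells to MAP3 kinases, these phosphorylate MAP2 kinases, and MAP2 kinases phosphorylate p38 or JNK on a threonine and a tyrosine of the activation loop. In heart muscle, p38 and JNK respond to mechanical load, oxidants and cytokines, and MEF2 factors, which drive muscle genes, are among their targets. Activity is set by phosphorylation, which RNA sequencing does not measure, so the values below are transcript levels only.

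Library totals recovered from the deposited values were 7.43 to 18.07 M fragments for LD hearts, 4.48 to 8.40 M for TAC hearts and 7.44 to 14.52 M for sham hearts. TAC 3 was the shallowest library. In TAC 2, TAC 3, sham 1 and sham 3, recovered fragment numbers moved in steps of 0.5, and in the other 5 libraries in whole fragments. All 8 cardiomyocyte markers were present, and their summed FPKM was 46500 to 73900 in LD, 35900 to 47100 in TAC and 46400 to 49000 in sham libraries. The 8 fibroblast markers summed to 443 to 560 FPKM in LD, 597 to 1240 FPKM in TAC and 396 to 556 FPKM in sham libraries, with the high values in TAC 2 and TAC 3. Of the 5 skeletal muscle markers, 1 was at 0 in every library, and their sum was at most 8.25 FPKM. In such bulk tissue, fewer cells of a type and less RNA per cell cannot be told apart.

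The 4 p38 genes and 3 JNK genes are told apart by sequence, and the coding stretch of the activation loop is shown because it carries the phosphorylated residues and the letters by which each paralogue differs. The stretches run 5′ to 3′ from the codons of the DFG motif to those of the APE motif in GENCODE M21 transcripts (GRCm38). Capitals mark the 3 codons of the phosphorylated threonine, a middle residue and the phosphorylated tyrosine. The middle codon encodes glycine in p38 and proline in JNK kinases.
Mapk11: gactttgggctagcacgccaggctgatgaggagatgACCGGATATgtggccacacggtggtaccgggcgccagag
Mapk12: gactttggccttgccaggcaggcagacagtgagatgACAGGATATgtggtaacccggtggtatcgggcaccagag
Mapk13: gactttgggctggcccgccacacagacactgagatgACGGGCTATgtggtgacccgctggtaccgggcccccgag
Mapk14: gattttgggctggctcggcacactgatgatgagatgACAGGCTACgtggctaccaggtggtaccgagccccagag
Mapk8: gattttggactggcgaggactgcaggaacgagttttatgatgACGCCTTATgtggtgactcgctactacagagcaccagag
Mapk9: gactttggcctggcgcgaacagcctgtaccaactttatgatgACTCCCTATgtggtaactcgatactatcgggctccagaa
Mapk10: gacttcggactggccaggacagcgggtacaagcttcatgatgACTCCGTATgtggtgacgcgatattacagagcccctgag

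The p38 stretches hold 75 bases and matched each other at 74.7% to 81.3% of positions. The JNK stretches hold 81 bases and matched at 75.3% to 80.2%. Across all annotated transcripts, no run of 25 bases was shared between any pair of p38 genes, and among JNK genes only Mapk8 and Mapk10 shared such runs, 6 in number. Mapk12 (chr15:89130584-89140703, minus strand) and Mapk11 (chr15:89142486-89149628, minus strand) are neighbours, as are Mapk14 (chr17:28691329-28748406, plus strand) and Mapk13 (chr17:28769297-28780233, plus strand). The JNK genes lie apart, Mapk8 at chr14:33377898-33447158 on the minus strand, Mapk9 at chr11:49846751-49886421 on the plus strand and Mapk10 at chr5:102907948-103211334 on the minus strand.

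Most members were expressed in these hearts, at levels that differed far more between genes than between groups. Values are in FPKM, which divides fragments by the length of the gene and by the size of the library, which allows levels of different genes to be compared as far as the gene lengths hold. The length recovered from the deposited values was within 25% of the annotated exonic length for only 19 of the 41 members, so the order of genes at similar levels is uncertain. Overlap with other genes on over 10% of exonic bases is a further limit for 6 members. They are Map2k7, Map3k11, Map3k12, Mapk8ip3, Mapkapk5 and Rps6ka4. The mean over the 9 libraries was at least 1 FPKM for 38 members, at least 5 FPKM for 24, at least 20 FPKM for 9 and at least 50 FPKM only for Mapkapk2. The filter for testing, 3 or more libraries at 1 FPKM or above, was passed by 37 members and not by Mapk13, Mapk14, Mapk10 and Map2k6.

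**Figure D1:**
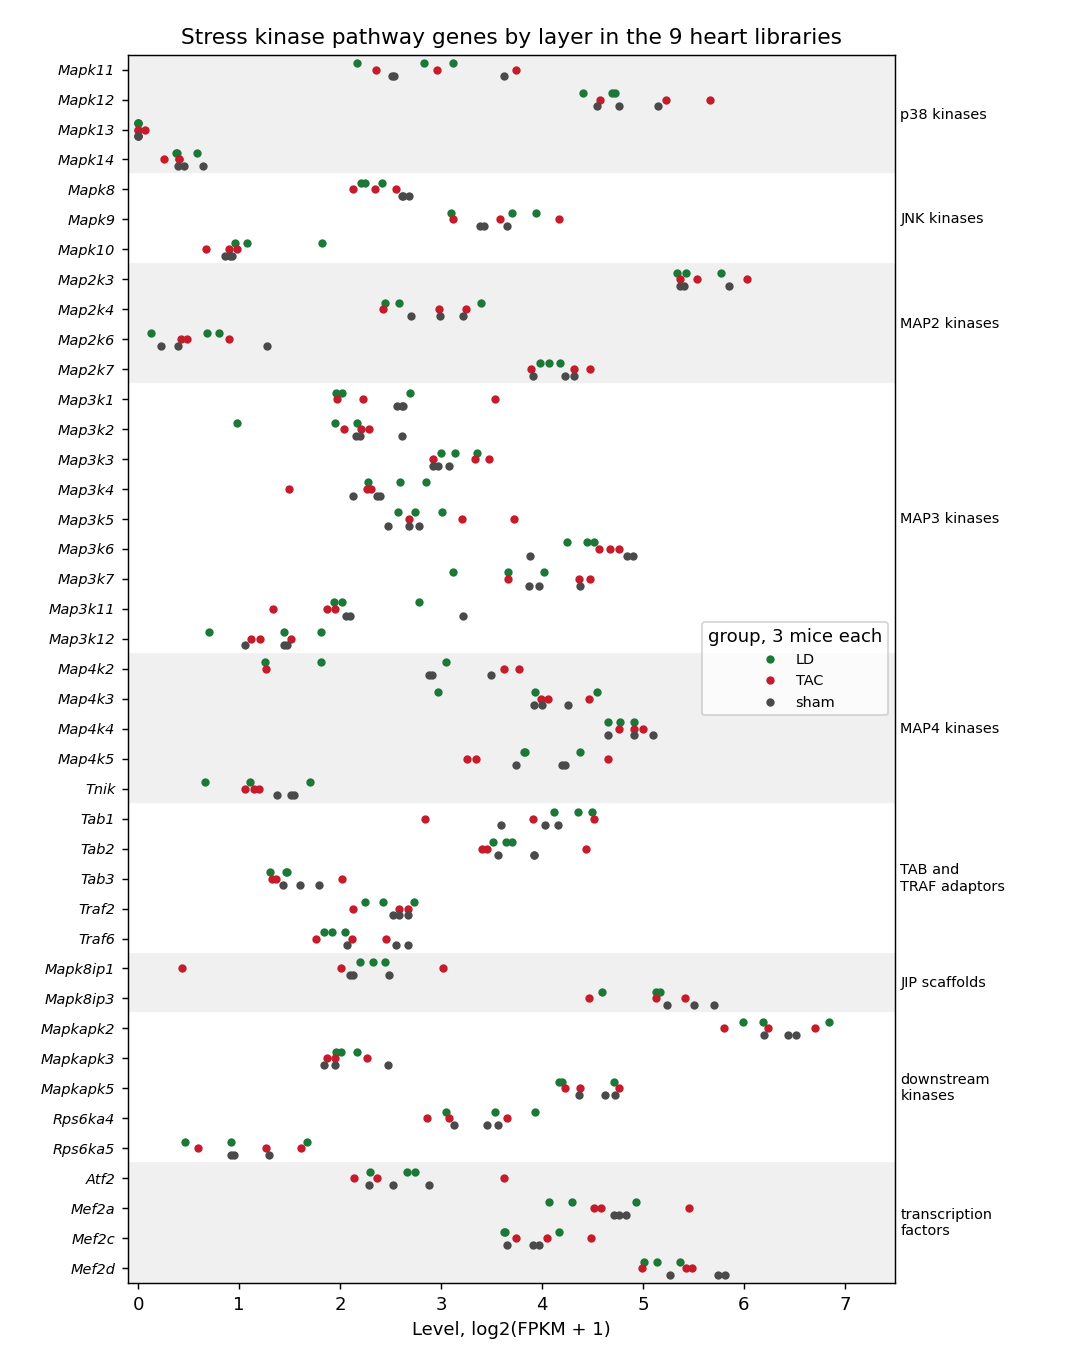
Level of each of the 41 genes in the 9 libraries, as log2(FPKM + 1) on the horizontal axis, with 1 point per mouse, colours for LD, TAC and sham, and shading by layer. Within each layer 1 or a few genes lie far above the rest, and the points of the 3 groups mix for most genes.

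Among p38 kinases, Mapk12, which encodes p38 gamma, a form abundant in striated muscle, had most of the transcript as listed. Its level was 25.5, 24.8 and 20.2 FPKM in LD hearts, 36.6, 22.9 and 49.6 FPKM in TAC hearts and 22.3, 26.2 and 34.4 FPKM in sham hearts. The LD values were close together, the TAC values spread widely with TAC 3 highest, and all 3 groups overlapped.
Mapk11, which encodes p38 beta, had 7.71, 6.13 and 3.49 FPKM in LD hearts, 12.4, 4.13 and 6.76 FPKM in TAC hearts and 4.70, 4.79 and 11.3 FPKM in sham hearts. One TAC and one sham heart stood above the others, and the groups overlapped.
Mapk14 encodes p38 alpha, the most widely expressed p38 in mammalian tissues and the form most studied in the heart. It was listed at only 0.496, 0.306 and 0.295 FPKM in LD hearts, 0.329, 0.194 and 0.323 FPKM in TAC hearts and 0.566, 0.371 and 0.318 FPKM in sham hearts. These values rest on 11 to 42 fragments a library, and the groups overlapped. The gene length recovered for Mapk14 was 7604 bases, against 4376 annotated exonic bases, and at the annotated length its highest value would be 0.984 FPKM. Its exons overlap those of no other annotated gene. What lies behind so low a value was not tested.
Mapk13, which encodes p38 delta, was listed at 0 in 8 libraries and at 0.0473 FPKM in TAC 2. For scale, 3 fragments on a gene of 1 kilobase would give between 0.166 FPKM in the deepest library and 0.669 FPKM in the shallowest, a limit that covers counting error only.

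Mapk12 made up 79.7% ± 4.31 of the summed p38 FPKM in LD, 81.9% ± 6.91 in TAC and 79.7% ± 4.54 in sham hearts (SD, n = 3 each). Its share was between 74.2% and 87.5% in every library. Mapk11 held most of the remainder, 18.5% on average over the 9 libraries, and Mapk14 held 1.06%. The order Mapk12, Mapk11, Mapk14 was the same in each of the 9 libraries. The files do not show whether reads of Mapk14 were lost in annotation or counting, so these shares describe the listed values only.

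The JNK family had 1 leading member and no silent one. Mapk9, which encodes JNK2, had 14.4, 12.0 and 7.57 FPKM in LD hearts, 11.0, 7.66 and 17.0 FPKM in TAC hearts and 9.75, 9.48 and 11.6 FPKM in sham hearts. LD and TAC each spanned the sham values on both sides.
Mapk8, which encodes JNK1, had 4.35, 3.75 and 3.62 FPKM in LD hearts, 4.07, 3.36 and 4.86 FPKM in TAC hearts and 5.42, 5.16 and 5.13 FPKM in sham hearts. The 3 sham hearts lay close together above all 6 operated hearts, while LD and TAC overlapped.
Mapk10, which encodes JNK3, a form known mainly from brain and heart, had 0.940, 1.12 and 2.54 FPKM in LD hearts, 0.600, 0.973 and 0.865 FPKM in TAC hearts and 0.814, 0.881 and 0.903 FPKM in sham hearts. LD 3 stood above the other 8 libraries. It made up 18.5% of the JNK transcript in that library and between 3.81% and 8.12% in the others.
Mapk8 held 23.6% ± 2.41 of the summed JNK FPKM in LD, 25.1% ± 3.41 in TAC and 32.1% ± 2.57 in sham hearts (SD, n = 3 each). Each sham share lay above each share of the operated hearts, and Mapk9 remained the largest in all 9 libraries, at 55.1% to 74.8%.

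**Figure D2:**
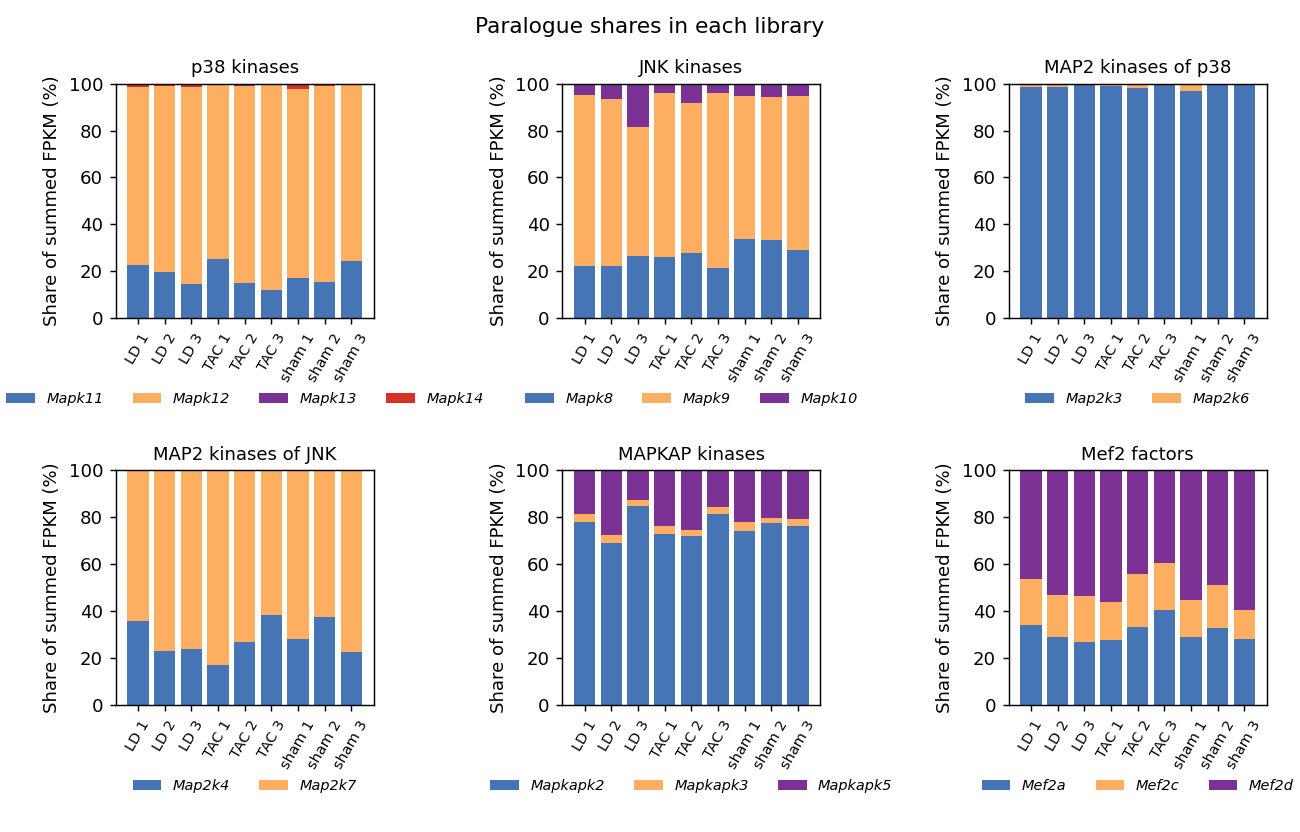
Share of each paralogue in the summed FPKM of its family, in percent, for 6 families and each library, with LD, TAC and sham from left to right. Mapk12 leads p38 in all 9 libraries and Mapk9 leads JNK, whereas the largest Mef2 member differs in TAC 3.

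The MAP2 kinases repeat this pattern of 1 leading form. Map2k3, which encodes the p38 activator MKK3, had 39.5, 53.5 and 41.9 FPKM in LD hearts, 40.4, 45.5 and 64.5 FPKM in TAC hearts and 41.4, 40.3 and 56.7 FPKM in sham hearts. The groups overlapped, with TAC 3 highest. Its partner Map2k6, which encodes MKK6, lay between 0.0896 and 1.42 FPKM, and Map2k3 held 96.7% to 99.8% of their sum.
Of the JNK activators, Map2k7 (MKK7) lay between 13.8 and 21.2 FPKM and Map2k4 (MKK4, which can also act on p38) between 4.37 and 9.50 FPKM. Map2k7 shares 35.2% of its exonic bases with an overlapping gene model, and the protocol names no step that keeps the strand. Reads that lie only on the shared bases therefore cannot be told apart.

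The 9 MAP3 kinases all passed the filter, with means over the 9 libraries from 1.53 FPKM for Map3k12 to 22.7 FPKM for Map3k6. Map3k6, which encodes ASK2, a partner of the oxidant-sensing kinase ASK1, had 20.8, 21.8 and 18.0 FPKM in LD hearts, 22.7, 26.2 and 24.6 FPKM in TAC hearts and 13.7, 27.6 and 28.8 FPKM in sham hearts. Each LD heart lay below each TAC heart, while the sham hearts covered both groups. Map3k5, which encodes ASK1 itself, had 4.94 to 7.06 FPKM in LD, 5.43 to 12.2 FPKM in TAC and 4.58 to 5.87 FPKM in sham hearts. Its highest value was in TAC 3, and TAC 2 lay within the sham range.
Map3k7, which encodes TAK1, the kinase held by the TAB adaptors, had 7.67 to 15.2 FPKM in LD, 11.7 to 21.2 FPKM in TAC and 13.6 to 19.7 FPKM in sham hearts. These ranges overlapped. Map3k4, which encodes MEKK4, the kinase bound by GADD45 proteins, had 3.85 to 6.21 FPKM in LD, 1.82 to 3.94 FPKM in TAC and 3.36 to 4.28 FPKM in sham hearts, with the lowest value, from 88 fragments, in TAC 3.
Map3k11 encodes MLK3, a mixed lineage kinase upstream of JNK. It had 5.88, 2.85 and 3.05 FPKM in LD hearts, 1.53, 2.87 and 2.67 FPKM in TAC hearts and 8.31, 3.18 and 3.28 FPKM in sham hearts. Every TAC value lay below every sham value, but the margin between TAC 2 and sham 2 was small. Among sham hearts, sham 1 stood far above the others. The exons of Map3k11 share 11.8% of their bases with another annotated gene, and its recovered length was 7785 bases, against 4393 annotated.

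Among MAP4 kinases, Map4k4, which links TNF-type signals and cytoskeletal stress to JNK, was the most abundant and the steadiest. It had 29.0, 26.4 and 24.1 FPKM in LD hearts, 30.9, 26.2 and 29.1 FPKM in TAC hearts and 33.3, 24.1 and 29.0 FPKM in sham hearts, a spread of 1.38-fold from the lowest to the highest library. The groups overlapped throughout.
Map4k2, a germinal centre kinase of the same family, was the most uneven member of this layer. It had 7.28, 2.50 and 1.39 FPKM in LD hearts, 11.3, 1.41 and 12.7 FPKM in TAC hearts and 6.52, 6.36 and 10.3 FPKM in sham hearts. TAC 2 lay with the low LD hearts and apart from the other 2 TAC hearts, on 100 fragments. Tnik, a member of the same kinase family that is also known from Wnt signalling, had 0.582 to 2.26 FPKM in LD, 1.08 to 1.30 FPKM in TAC and 1.60 to 1.91 FPKM in sham hearts. Each TAC heart was below each sham heart, and the LD hearts covered both ranges.

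Of the adaptors, Tab1, which binds and activates TAK1, led with 19.5, 21.6 and 16.4 FPKM in LD hearts, 21.8, 14.0 and 6.17 FPKM in TAC hearts and 15.3, 11.1 and 16.8 FPKM in sham hearts. The low TAC 3 value rests on 83 fragments, and the groups overlapped. Tab2, which tethers TAK1 to ubiquitin chains, averaged 12.6 FPKM over the 9 libraries, and its relative Tab3 averaged 1.93 FPKM. Traf6, the ubiquitin ligase below interleukin-1 and Toll-like receptors, had 2.59 to 3.14 FPKM in LD, 2.39 to 4.50 FPKM in TAC and 3.20 to 5.36 FPKM in sham hearts. The highest LD value was just under the lowest sham value. Traf2, the adaptor of TNF receptors, lay between 3.37 and 5.67 FPKM in all libraries.

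The scaffolds hold JNK together with its activators. Mapk8ip3, which encodes JIP3, had 35.0, 33.9 and 23.1 FPKM in LD hearts, 41.7, 21.1 and 34.1 FPKM in TAC hearts and 44.4, 36.8 and 51.2 FPKM in sham hearts. All LD hearts were below all sham hearts, and the TAC hearts overlapped with both. Its exons share 20.4% of their bases with another annotated gene. Mapk8ip1, which encodes JIP1, lay between 3.03 and 7.10 FPKM in 8 libraries and at 0.351 FPKM, from 6 fragments, in TAC 3.

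Downstream of p38, Mapkapk2, which encodes MK2, the kinase that controls the stability of inflammatory mRNAs, was the highest of all members. It had 72.1, 62.7 and 114 FPKM in LD hearts, 54.9, 74.4 and 103 FPKM in TAC hearts and 85.8, 90.5 and 72.5 FPKM in sham hearts. LD 3 and TAC 3 were the highest libraries, and the groups overlapped. It held 76.2% of the summed FPKM of the MAPKAP kinases on average, against 20.7% for Mapkapk5 and 3.06% for Mapkapk3. Mapkapk5 shares 56.5% of its exonic bases with overlapping genes, so its share is uncertain. Of the MSK kinases, which phosphorylate histones and CREB, Rps6ka4 averaged 9.54 FPKM and Rps6ka5 averaged 1.19 FPKM over the 9 libraries.

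The Mef2 factors among the members, Mef2a, Mef2c and Mef2d, were all well expressed. Mef2d had 40.4, 34.2 and 31.2 FPKM in LD hearts, 43.7, 30.7 and 41.9 FPKM in TAC hearts and 52.4, 37.6 and 55.3 FPKM in sham hearts. The LD values lay toward the low end, and sham 2 fell inside the range of the operated hearts.
Mef2a had 29.5, 18.6 and 15.8 FPKM in LD hearts, 21.8, 23.0 and 43.0 FPKM in TAC hearts and 27.5, 25.2 and 26.1 FPKM in sham hearts. The sham hearts were close together, and TAC 3 was far above the rest. Mef2c had 17.0, 11.3 and 11.4 FPKM in LD hearts, 12.4, 15.6 and 21.4 FPKM in TAC hearts and 14.7, 14.0 and 11.6 FPKM in sham hearts, again with TAC 3 highest and the groups overlapping.
Mef2d made up 51.1% ± 3.97 of the summed FPKM of these Mef2 members in LD, 46.6% ± 8.58 in TAC and 54.6% ± 5.25 in sham hearts (SD, n = 3 each). In TAC 3 alone Mef2a exceeded Mef2d, with 40.4% against 39.4%, but at annotated exonic lengths, 14681 bases for Mef2a and 5985 for Mef2d, Mef2d was the largest in all 9 libraries. Atf2, a leucine zipper factor phosphorylated by both p38 and JNK, had 3.90 to 5.71 FPKM in LD, 3.39 to 11.3 FPKM in TAC and 3.89 to 6.35 FPKM in sham hearts, with its highest value in TAC 3.

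**Figure D3:**
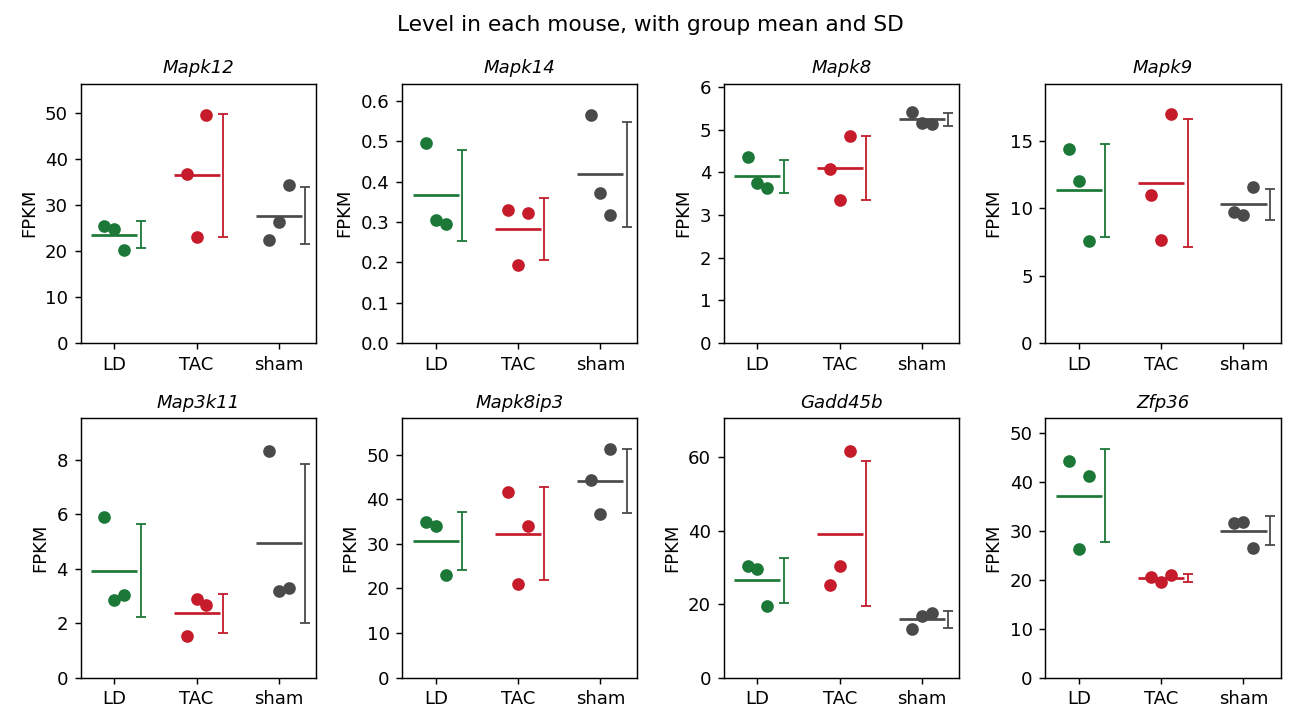
FPKM of 6 members and of 2 other genes of the pathway, Gadd45b and Zfp36, in each mouse, with LD, TAC and sham from left to right. Lines are group means and bars with caps the SD of 3 mice, and each vertical axis starts at 0. Mapk8 is highest in the 3 sham hearts, and Mapk14 lies below 0.6 FPKM in every heart.

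The comparison of TAC with sham hearts asks which stress kinase genes differ after pressure overload. No member passed the threshold. With limma on log2(FPKM + 1), 0 of 37 members and 0 of 11380 genes had an adjusted p under 0.05, and 0 members had an unadjusted p under 0.05, against 618 of all genes, or 5.43%. The limma voom model on recovered fragments also called 0 genes after adjustment.
The median log2 difference, TAC minus sham, was -0.04 over the members and 0 over all genes tested. It was above 0 for 15 members, or 40.5%, against 50% of all genes, and below 0 for 22. By layer it was below 0 for 5 of 5 adaptors, 2 of 2 scaffolds and 4 of 5 downstream kinases, and above 0 for 2 of 2 p38 kinases, 1 of 2 JNK kinases, 2 of 3 MAP2 kinases, 4 of 9 MAP3 kinases, 2 of 5 MAP4 kinases and 3 of 4 transcription factors. Under the 2 other scalings the only members to change sign were Map4k4, below 0 after median-of-ratios scaling, and Map3k1, above 0 with equal library sums. Without TAC 1 the p38 gene Mapk11 had a difference of -0.23. Signs in the layers below 0 also turned with single libraries. Tab1 and Mapk8ip1 were both at 0.28 without TAC 3. Without TAC 1, Tab2 was at 0.16, Tab3 at 0.08 and Mapkapk2 at 0.08. Traf2 was at 0.04 without TAC 2, and Mapkapk3 at 0.14 without sham 1. Traf6, Mapk8ip3 and Rps6ka4 stayed below 0 whichever library was left out.
TAC and sham values did not overlap for 3 members, 8.11% of those tested, all lower in TAC: Map3k11, Mapk8 and Tnik. Over all genes tested, 4.62% did not overlap and were lower in TAC, and 9.84% did not overlap in either direction. After scaling to equal library sums, Mapk8 overlapped and the other 2 did not.
Map3k11 averaged 2.36 ± 0.725 FPKM in TAC and 4.92 ± 2.93 FPKM in sham hearts (SD, n = 3 each). Its log2 difference was -0.74 ± 0.37 (SE), with a 95% interval from -1.52 to 0.05 and a limma adjusted p of 0.936. Without sham 1 the difference was -0.36. Between the libraries in steps of 0.5 it was -0.74 and between TAC 1 and sham 2, both in whole fragments, -0.73.
For Mapk8 the log2 difference was -0.30 ± 0.25 (SE) and for Mapk12 it was 0.34 ± 0.29 (SE). Their 95% intervals ran from -0.84 to 0.24 and from -0.28 to 0.95. Among members the largest positive difference was that of Map3k5, 0.56 with an interval from -0.07 to 1.19. Without TAC 3 the difference of Mapk12 was 0.09 and that of Map3k5 was 0.30, and without TAC 2 they were 0.63 and 0.82 and that of Mapk8 was -0.19. These intervals include 0 and reach well beyond the measured differences, so a p above the threshold does not show that levels were the same.

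The comparison of LD with TAC hearts asks which of these genes differ under the decoction. It uses the same TAC libraries as the comparison above, so they are not independent. Again 0 of 37 members and 0 of 11380 genes passed limma's adjusted threshold, and 0 members had an unadjusted p under 0.05, against 1004 of all genes, or 8.82%. The voom model called 0 genes after adjustment.
The median log2 difference, LD minus TAC, was -0.12 over the members and -0.10 over all genes tested. It was above 0 for 11 members, or 29.7%, against 39.6% of all genes, and below 0 for 26. Scaling the libraries by the median of ratios brought both medians to 0.01, with 20 members above 0 and 17 below. Scaling to equal library sums gave 6 above and 31 below. Without TAC 3 and LD 3 the members' median was 0.06 and that of all genes -0.01, so the sign of the members' median turned with these settings.
LD and TAC values did not overlap for 1 member, Map3k6, 2.7% of those tested, which was lower in LD. Over all genes, 8.14% did not overlap and were lower in LD, and 11.9% did not overlap in either direction. After median-of-ratios scaling Map3k6 overlapped, and Map3k11 was higher in each LD than in each TAC heart. With equal library sums Map3k6 did not overlap, and Map3k4 was higher in each LD than in each TAC heart. Map3k6 averaged 20.2 ± 1.99 FPKM in LD and 24.5 ± 1.75 FPKM in TAC hearts (SD, n = 3 each). Its log2 difference was -0.27 ± 0.28 (SE), with a limma adjusted p of 0.759.
The 2 p38 genes tested both had lower means in LD, with a log2 difference of -0.55 ± 0.29 for Mapk12 and -0.31 ± 0.40 for Mapk11 (SE), and both were below 0 under either scaling, between -0.66 and -0.19. Without TAC 1 the difference of Mapk11 was 0.05, so its sign rests on that library. That of Mapk12 was -0.30 without TAC 3 and -0.84 without TAC 2. Mapk12 had the smallest p of all members in this comparison, with an adjusted p of 0.583, and its 95% interval ran from -1.17 to 0.07. The 4 transcription factors had differences between -0.42 for Mef2a and -0.12 for Mef2d, and none passed the test. After median-of-ratios scaling that of Mef2d was 0.01, and that of Mef2a was -0.12 without TAC 3. Tab1 and Map3k4 differed in the other direction, by 0.57 and 0.55. Both had their lowest value in TAC 3, and without it they differed by 0.12 and 0.29.

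**Figure D4:**
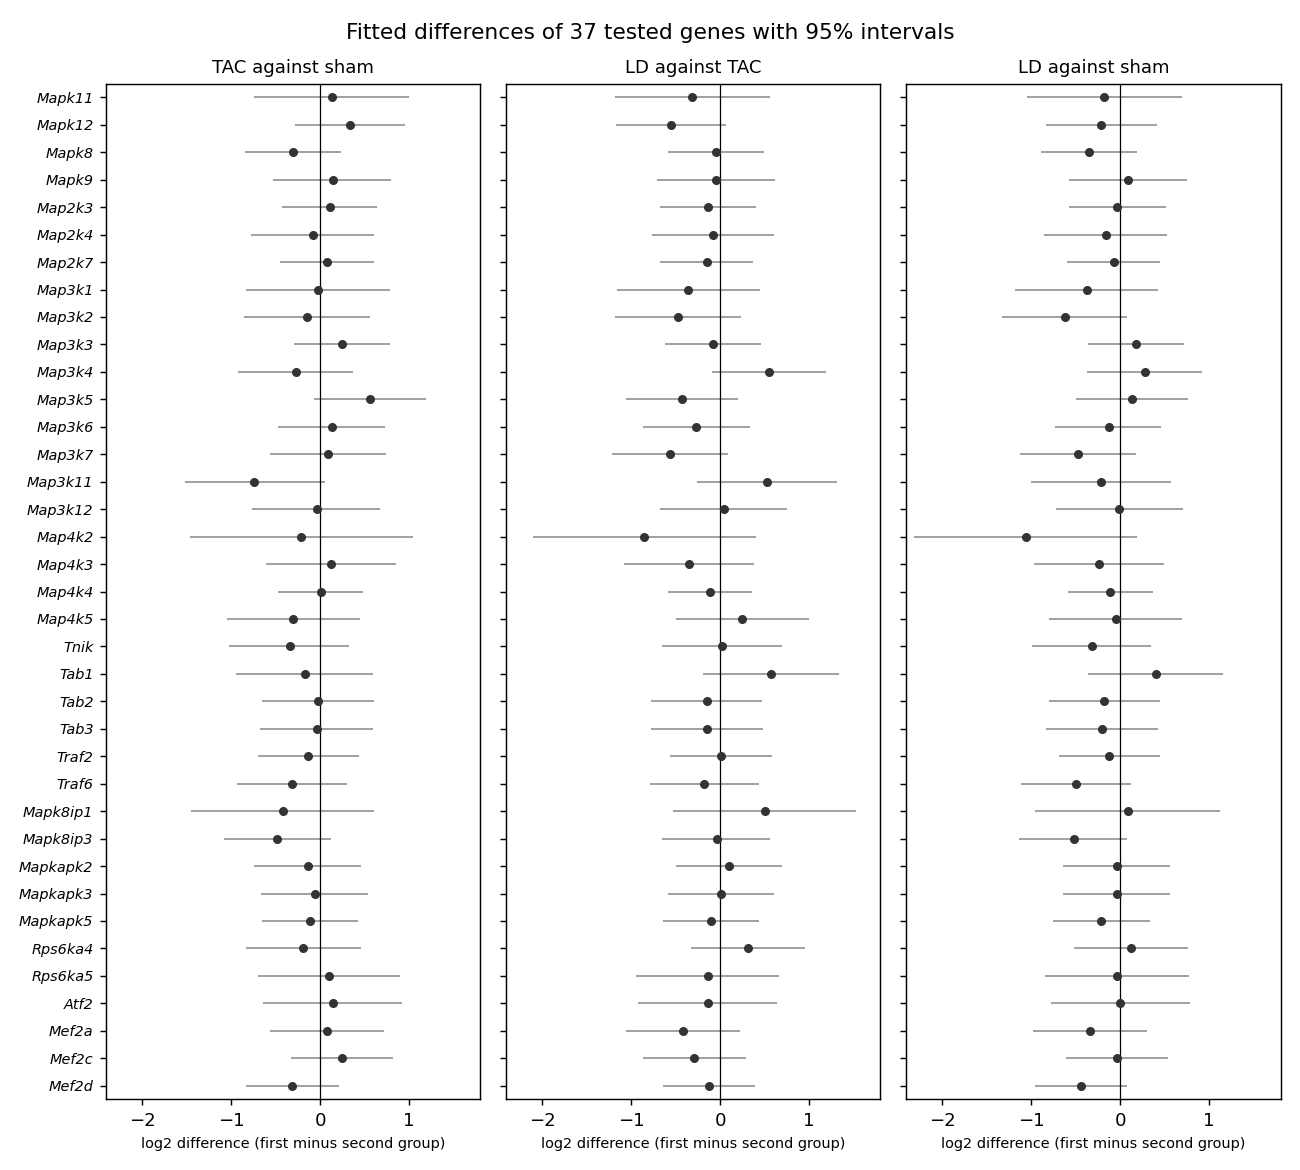
Log2 difference of each of the 37 tested genes with its 95% interval, first minus second group, for TAC against sham, LD against TAC and LD against sham. All 37 intervals in each of the 3 comparisons include 0, and Map4k2 has the widest.

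LD was also set against sham, with libraries that both other comparisons use. Here too 0 of 37 members and 0 of 11380 genes passed limma's adjusted threshold, and 0 members had an unadjusted p under 0.05, against 581 of all genes, or 5.11%. The voom model called 0 genes after adjustment.
The median log2 difference, LD minus sham, was -0.13 over the members and -0.11 over all genes tested, and after scaling by the median of ratios the members' median was -0.02 and that of all genes 0. It was above 0 for 8 members, or 21.6%, against 37.2% of all genes, and below 0 for 29. The same scaling gave 17 members above 0 and 20 below.
LD and sham values did not overlap for 3 members, 8.11% of those tested, all lower in LD: Mapk8, Mapk8ip3 and Traf6. Over all genes, 8.76% did not overlap and were lower in LD, and 13.2% did not overlap in either direction. After median-of-ratios scaling Mapk8 and Mapk8ip3 still did not overlap, Traf6 did, and Tab1 was higher in each LD than in each sham heart.
Mapk8ip3 averaged 30.6 ± 6.59 FPKM in LD and 44.1 ± 7.21 FPKM in sham hearts (SD, n = 3 each). Its log2 difference was -0.52 ± 0.28 (SE), with a 95% interval from -1.13 to 0.08 and a limma adjusted p of 0.875. Between the 3 LD libraries and sham 2, all counted in whole fragments, it was -0.28, and without LD 3 it was -0.34.
Mapk8 differed by -0.35 ± 0.25 and Traf6 by -0.49 ± 0.29 on the log2 scale (SE), and neither passed the test. The largest negative difference was that of Map4k2, -1.06 with a 95% interval from -2.31 to 0.19, and it was -0.67 without LD 3.

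Single libraries carried much of the spread among members, and the libraries that did so were those in which genes at large were high or low. TAC 3, the shallowest library, held the highest value of 13 of 37 members, 35.1%, against 27.3% of all genes tested. It also held the lowest value of 4 members, 10.8%, against 16.3% of all genes. LD 3 held the lowest value of 12 of 37 members, 32.4%, against 31.6% of all genes. Its values were the highest for 3 members, 8.11%, against 10.2% of all genes. The median deviation of members from the sham mean was 0.18 in TAC 3 and -0.39 in LD 3 on the log2 scale, where all genes had 0.08 and -0.24. In TAC 2 it was -0.21 for members and -0.02 for all genes. TAC 1 held the lowest value of 18.9% of members, against 10.3% of all genes, and TAC 2 that of 16.2%, against 10.7%. Map3k1, which encodes MEKK1, had 10.6 FPKM in TAC 3 and 2.89 to 5.48 FPKM in the other libraries. Map4k5, a JNK-activating MAP4 kinase, had 24.2 FPKM in TAC 3 and 8.59 and 9.19 FPKM in the other TAC hearts. Map3k2, which encodes MEKK2, had 0.970 FPKM in LD 3 and 2.87 to 5.13 FPKM elsewhere. The summed cardiomyocyte markers were lowest in TAC 3 and highest in LD 3. LD 3 also stood apart in atrial markers: the 3 that passed the filter had a median log2 deviation of 2.72 from the sham mean there and of -0.67 to 0.48 in the other libraries. The part of these markers in the values of LD 3 and TAC 3 was not tested.

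**Figure D5:**
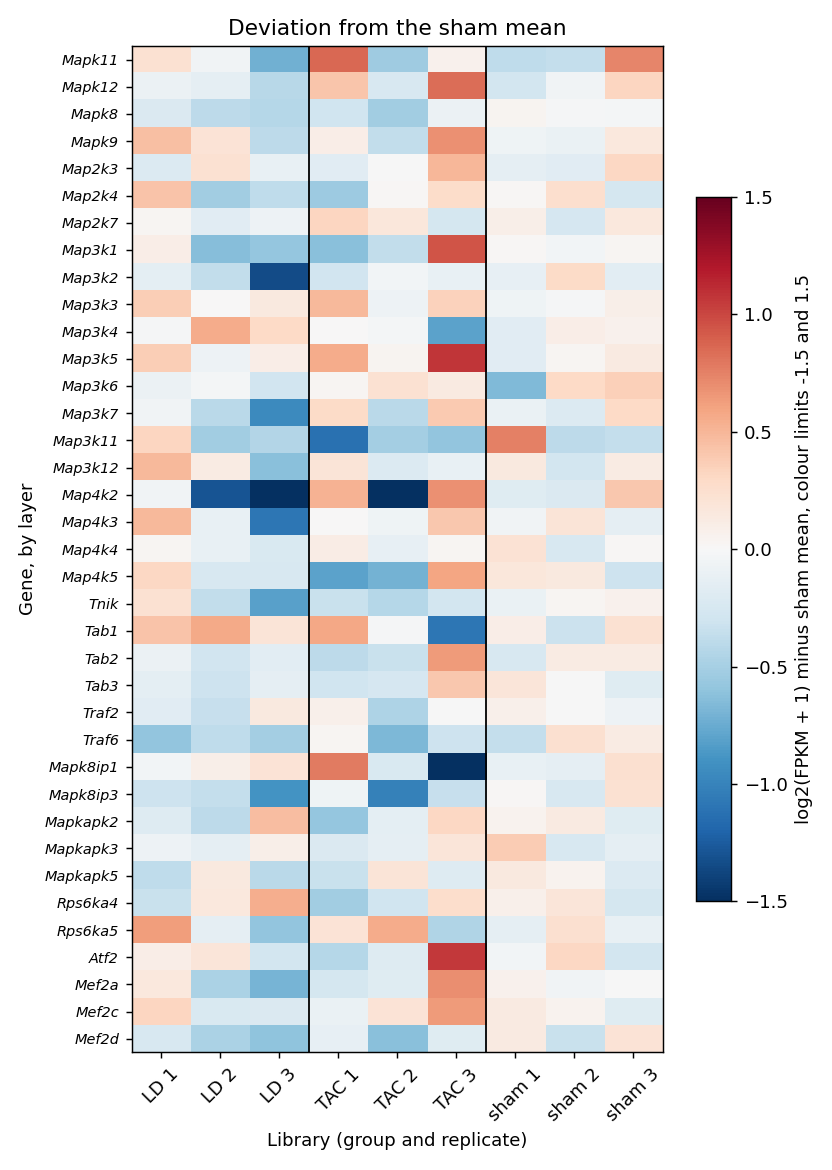
Deviation of each of the 37 tested genes from its sham mean in each library, on the log2(FPKM + 1) scale, red for higher and blue for lower, with colours limited at -1.5 and 1.5. Red cells gather in TAC 3 and blue cells in LD 3, with Map4k2 in LD 3 and TAC 2 and Mapk8ip1 in TAC 3 as the darkest blue cells.

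A further 47 genes of stress signalling that are not members, such as other MAP3 kinases, stress-induced factors and cytokine receptors, were listed to show the surroundings of the cascade, and 40 of them passed the filter. None passed the adjusted threshold in any of the 3 comparisons. In TAC against sham, 1 of the 40 had an unadjusted limma p under 0.05 and was higher, and 4 were lower. Over all 11380 genes tested, 324 were higher and 294 lower, together 5.43%. The share among the 40 was above that, in a list chosen with earlier results of these data known. Gadd45b, a stress-induced protein that binds MEKK4, had 30.4, 29.5 and 19.4 FPKM in LD hearts, 25.2, 30.5 and 61.7 FPKM in TAC hearts and 13.3, 16.7 and 17.5 FPKM in sham hearts. All operated hearts lay above all sham hearts, with TAC 3 the highest. Its log2 difference was 1.15 ± 0.32 for TAC minus sham (SE; limma adjusted p = 0.634) and 0.68 ± 0.32 for LD minus sham (adjusted p = 0.875), and without TAC 3 the first was 0.78.
Map3k10, which encodes MLK2, averaged 8.26 ± 2.60 FPKM in LD, 4.74 ± 0.324 FPKM in TAC and 8.37 ± 1.60 FPKM in sham hearts (SD, n = 3 each). TAC hearts lay below all hearts of both other groups, with a log2 difference of -0.69 for TAC minus sham and 0.65 for LD minus TAC. Both used the same 3 TAC hearts, and the adjusted p was 0.842 and 0.54. Map4k1, a MAP4 kinase known from blood cells, and Elk1, an ETS factor phosphorylated by MAP kinases, had log2 differences of -0.70 and -0.73 for TAC minus sham at low levels, with means of 0.381 and 1.24 FPKM in TAC hearts against 1.20 and 2.52 FPKM in sham hearts. Without TAC 3 the differences were -0.49 and -0.38, and with a pseudocount of 0.1 they were -1.87 and -1.24.

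In LD against TAC, 2 of the 40 genes had an unadjusted p under 0.05 and were higher, and 0 were lower. Over all 11380 genes tested, 286 were higher and 718 lower, together 8.82%. Counted in both directions, the 40 genes did not exceed that share, but both genes were higher, the less common direction at large. Zfp36 encodes tristetraprolin, an mRNA-decay factor that MK2 phosphorylates. It had 44.2, 26.3 and 41.2 FPKM in LD hearts, 20.6, 19.5 and 21.0 FPKM in TAC hearts and 31.7, 31.9 and 26.6 FPKM in sham hearts. The TAC hearts were close together and below every other heart. The log2 difference, LD minus TAC, was 0.81 ± 0.24 (SE; limma adjusted p = 0.52). The other was Map3k10. Creb1, a target of the MSK kinases, averaged 4.98 ± 1.89 FPKM in LD and 8.33 ± 2.80 FPKM in TAC hearts (SD, n = 3 each), and these overlapped.
In LD against sham, 1 of the 40 genes was higher, Gadd45b, and 1 was lower, Ddit3, which encodes the stress factor CHOP. Over all 11380 genes tested, 173 were higher and 408 lower, together 5.11%, and the share of the 40 in both directions together was near that. Ddit3 had 24.0, 29.2 and 26.2 FPKM in LD hearts, 48.9, 33.2 and 29.4 FPKM in TAC hearts and 39.5, 35.7 and 47.5 FPKM in sham hearts. The LD hearts lay below all others, and the log2 difference, LD minus sham, was -0.60 ± 0.24 (SE; limma adjusted p = 0.875). Irak1, a kinase of interleukin-1 signalling, differed by -0.52 with an interval from -1.22 to 0.18, and by -0.13 without LD 3.

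Markers of other cell types were followed beside these genes. The 8 fibroblast markers summed to 443 to 560 FPKM in LD, 597 to 1240 FPKM in TAC and 396 to 556 FPKM in sham hearts. In TAC against sham all 8 had a log2 difference above 0, with a median of 0.65, and in LD against TAC all 8 lay below 0, with a median of -0.74. Dcn, a matrix proteoglycan of fibroblasts, averaged 342 ± 81.7 FPKM in LD, 686 ± 239 FPKM in TAC and 311 ± 44.8 FPKM in sham hearts (SD, n = 3 each). Of the other lists, the 4 atrial markers summed to 167 to 554 FPKM in LD hearts. Their sum was 99.1 to 451 FPKM in TAC and 66.0 to 102 FPKM in sham hearts. Nppa made up most of it, averaging 275 ± 176, 253 ± 180 and 72.3 ± 14.7 FPKM (SD) in LD, TAC and sham hearts. Myl7 averaged 14.7, 1.43 and 4.23 FPKM in the same order, with TAC and sham overlapping. Myl4 averaged 11.5, 5.78 and 4.50 FPKM, and Sln 3.58, 0.259 and 0.0883 FPKM. Each of these genes was highest in LD 3. In LD 1, LD 2 and LD 3, Myl7 had 0, 1.88 and 42.3 FPKM, Myl4 2.35, 5.26 and 27.0 FPKM, and Sln 2.07, 0.638 and 8.02 FPKM. With its far higher level, Nppa dominates the sum. The 5 smooth muscle markers summed to 243 to 385 FPKM in LD, 149 to 298 FPKM in TAC and 195 to 227 FPKM in sham hearts. Endothelial, macrophage and skeletal muscle sums overlapped between all groups. The 5 erythroid markers summed to 1210 to 2270 FPKM in LD, 2240 to 11100 FPKM in TAC and 516 to 3340 FPKM in sham hearts. The part of these cell types in the levels of the stress kinase genes was not tested.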

How the data were processed

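RNA was sequenced from 9 mouse hearts, 3 each of LD, TAC and sham. The authors deposited FPKM values of 21989 gene symbols. Per the submitters' processing notes, the tools were CASAVA 1.8, fastp 0.20.0, HISAT2 2.1.0, Cufflinks 2.2.1, HTSeq 0.7.2 and DESeq, on build GRCm38. The role of each tool is not given in the sources used here, nor is an annotation. Per the labels' protocols, mRNA was selected with poly-T beads.

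The steps between deposited FPKM values gave the total of each library and the length of each gene: 16252 of 16262 genes above 0 (99.9%) came out as multiples of 1 fragment in 5 libraries and of 0.5 in 4, within a tolerance of 0.01. Lengths are the smallest that fit. Where steps are 0.5, 12.0% to 14.4% of values were not whole, counted only over recovered genes above 0 in every library and at low fragment numbers.

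Values were analysed as log2(FPKM + 1), which understates changes of low genes. Testing covered the 11380 genes that reached 1 FPKM in 3 or more libraries, in limma 3.58.1 under R 4.3.3, with 3 groups in 1 fit, 6 residual degrees of freedom, moderated two-sided tests with a trend, and Benjamini-Hochberg adjustment over all genes at 0.05. The fit was tested on simulated data. Replicates correlated at 0.938 to 0.968 in LD, 0.913 to 0.946 in TAC and 0.960 to 0.973 in sham hearts across genes (Pearson's r of log2 values), a description.

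The members and lists were chosen with earlier results of these data known, so no test over the list is given. By the naming rule, a member has its fit given where its unadjusted p was under 0.05 or its groups did not overlap with a log2 difference of at least 0.5; leading members of each layer, all p38, JNK and Mef2 genes have their values given; and up to 4 other pathway and marker genes of smallest p are named per comparison. Other members singled out in the text were chosen after their values were seen. Coordinates, exon overlaps and coding sequences are from GENCODE M21. Alternatives were another pseudocount, no filter, 2 scalings, voom on recovered fragments, sample weights, 2 groups only, a replicate block, libraries left out and, chosen after seeing the data, the counting step as a term and annotated gene lengths.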

Additional observations from a re-analysis of the deposited data

How the results depend on the processing

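Under 19 alternatives in each comparison, 0 members passed the adjusted threshold, and the differences given for Map3k11 (TAC minus sham), Mapk8ip3 (LD minus sham) and the named pathway genes outside the members kept their direction. Genes past it numbered 0 in LD against TAC under all of them. In TAC against sham there were 9 with sample quality weights and 0 to 13 with 1 library left out, 13 without TAC 1. In LD against sham there were 135 with weights, 10 with only the 2 groups compared and 0 to 8 with 1 library left out, 8 without TAC 1.

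Members with an unadjusted p under 0.05 moved with the setting. In the main limma fit the share of all genes under that threshold was 5.43% for TAC against sham. It was 8.82% for LD against TAC and 5.11% for LD against sham. The share under each alternative is not given here, so the counts below cannot be set against it and only describe the settings. Lower in TAC than sham was 1 with voom (Map3k11), 1 with weights (Mapk8ip3), 1 without TAC 3 and LD 3 (Map4k5) and 0 to 2 with 1 library left out, 2 without TAC 1 (Mapk8ip1, Mapk8ip3); higher was 0 to 2, 2 without TAC 2 (Map3k5, Mapk12). Higher in LD than TAC was 1 after median-of-ratios scaling (Map3k4), 2 with weights (Map3k4, Tab1), 1 without TAC 3 and LD 3 (Map4k5) and 0 to 2 with 1 library left out, 2 without TAC 1 (Mapk8ip1, Tab1). Lower was 0 to 4, with 4 without LD 1 (Map3k7, Map4k2, Map4k3, Mef2a) and 4 without TAC 2 (Map3k5, Map3k7, Map4k2, Mapk12). The median of members, LD minus TAC, was 0.06 without TAC 3 and LD 3. Lower in LD than sham was 2 with voom (Map3k2, Map4k2), 4 with weights (Map3k1, Map3k2, Map4k2, Traf6), 2 with only the 2 groups (Map4k2, Mapk8ip3), 1 with the counting step as a term (Traf6) and 0 to 2 with 1 library left out; higher was 2 with weights (Map3k4, Tab1). Where the alternative leaves out libraries or groups it also has fewer samples; otherwise the cause was not tested.

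With the replicate number as a block, 0 genes and 0 members passed the adjusted threshold in each comparison. Unadjusted limma p-values were then above 0.05 for the pathway genes Elk1 (0.0529) and Map4k1 (0.0506) in TAC against sham and Gadd45b (0.0643) in LD against sham. Deviations from the group means correlated across genes at r from -0.24 to 0.15 between same-numbered libraries. Between differently numbered libraries r ran from -0.27 (LD 2 with TAC 3) to 0.37 (TAC 1 with sham 3). The number thus marked no closer likeness, but such values cannot show whether mice shared a litter, operation or handling, which was not tested. Scaling cannot change a share within a library. Without LD 3 the mean share of Mapk9 in LD went from 66.4% to 72.1%, and without TAC 3 that of Map2k7 in TAC from 72.7% to 78.1%. With annotated exonic lengths, an alternative chosen after seeing the data, Mapk9 held 75.6% of JNK in TAC and 69.5% in sham; Map2k3 97.7%, 97.5% and 96.8% in LD, TAC and sham; Mapkapk2 80.8% in TAC and 81.4% in sham; and Mef2d 70.2%, 66.1% and 73.2% in LD, TAC and sham. Depth limits Mapk13 and the low values of TAC 3, where 3 fragments on 1 kilobase equal 0.669 FPKM.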
